A study of Danio rerio with 9 samples.

Results

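The comparison set 3 libraries of fam177a1a;fam177a1b double mutants against 3 wild-type libraries of the same age, 6 of the 9 libraries in the series. All 6 were chosen by genotype label alone. Each library held total RNA pooled from 7 whole zebrafish larvae at 8 days post fertilization, sequenced in pairs after depletion of ribosomal RNA. The double mutants carried 2 alleles in the homozygous state, stl700 in fam177a1a and stl746 in its copy fam177a1b. The wild-type columns are headed with the name of the AB laboratory line. The series also holds 3 libraries of single mutants, homozygous for stl700, which entered the fit. They are set against the double mutants in the targeted row and near the end. The labels do not give the line in which the mutants were kept, so a difference of genotype and a difference of line cannot be told apart. Nor do they tell if libraries of 1 genotype were raised from separate clutches, so the p-values measure the spread between these samples, which may be technical.

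FAM177A1 is a small protein that lies at the Golgi complex, the station where newly made proteins and lipids are glycosylated and sorted. Zebrafish carry it as a pair of gene copies, fam177a1a and fam177a1b. The Golgi receives its cargo from the endoplasmic reticulum in COPII-coated vesicles, returns proteins to it in COPI-coated ones, and hands the rest on to lysosomes, to the cell surface or to secretion. The membrane of the endoplasmic reticulum also holds the sensors and most enzymes of cholesterol synthesis.

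The double-mutant libraries held 16978591, 18055294 and 19276480 counts, against 24717581, 18297048 and 21085943 counts in wild type. A count of 3 in 1 library equals between 0.121 and 0.178 CPM, the usual count relative to library size, in these 6 libraries. The correlation of log2 CPM across genes was between 0.988 and 0.990 among the double mutants, between 0.986 and 0.988 among the wild types, and between 0.951 and 0.955 across the genotypes. Defining markers of the tissues of a whole larva had counts in every library: the lowest count in any library was 55517 for the muscle gene myhz1.2, 8804 for the liver gene fabp10a, 12005 for the rod gene rho, 2158 for the neuronal gene elavl3 and 312 for the neutrophil gene mpx. In pooled whole larvae, fewer cells of a type and less RNA per cell cannot be told apart.

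The row named fam177a1 was close to empty in the double mutants. It had 0.890, 0.501 and 0.418 CPM in the double mutants and 27.0, 26.1 and 22.4 CPM in wild type. The groups lay far apart (log2 fold change -5.39, SE 0.21, adjusted p = 1.84e-10). Here and below, a log2 fold change is the double mutants over wild type, SE is its standard error, and p is adjusted over all 21694 genes tested. The single mutants, homozygous for stl700 alone, were similarly low in this row, with 0.458, 0.829 and 0.628 CPM. The double mutants were not called against them (log2 fold change of double over single mutants -0.098). The near-empty row was thus not particular to the double mutants. The deposited table has no row named for either zebrafish copy, so whether this row counts reads of 1 copy or of both is not known. The copy fam177a1b therefore has no values of its own here.

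Of the 21694 genes tested, 32.2% were called at an adjusted p under 0.05. The calls were 3084 genes higher in the double mutants (14.2% of those tested) and 3906 lower (18%). These shares are the background for every group below. Some genes belong to more than 1 group, so counts of different groups can rest on the same genes. For example, per1a is counted both as a clock repressor and as a glucocorticoid-responsive gene. Most differences were small. The median log2 fold change was 0.63 among genes called higher and -0.52 among genes called lower, against -0.014 over all genes tested. At least 2-fold differences made up 808 of the higher calls (3.72% of genes tested) and 599 of the lower ones (2.76%), and at least 4-fold ones 188 and 174. The values of the groups did not overlap in 50.1% of all genes tested. That held for 6895 of the 6990 called genes, so a lack of overlap adds little to a call. It was also a condition for naming the genes with the largest differences. The groups did not overlap in any gene described below with values either, except cyp2p9, and in golga2 the gap was smaller than the digits printed.

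**Figure D1:**
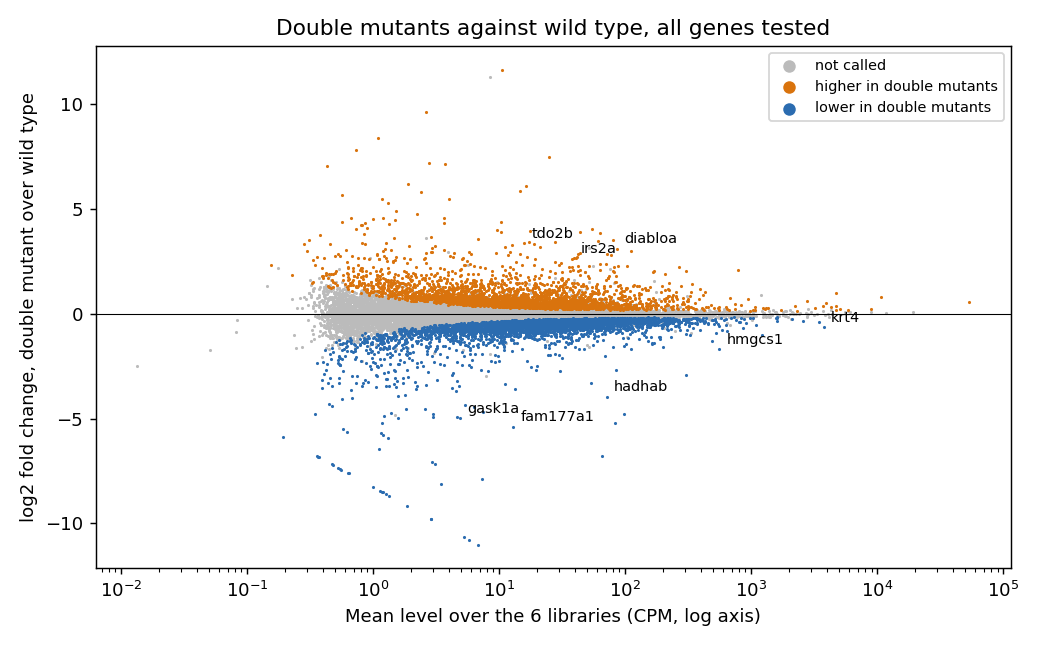
Log2 fold change of double mutants over wild type (vertical axis) against the mean level over the 6 libraries in CPM (horizontal log axis), 1 point per gene tested that had a count in these libraries. Genes called higher are orange, genes called lower blue and the rest grey; the calls (3084 higher, 3906 lower) lie on both sides of 0, labels mark genes described in the text, and the fitted values of genes without a count in 1 genotype depend on the prior count.

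The genes around the targeted row gave no common direction. In the order of the reference assembly GRCz12tu, the 10 tested genes on each side of fam177a1 held 3 that rose and 3 that fell in the double mutants, and the other 14 passed no test. These 6 calls were no larger a share than the 32.2% over all genes tested. With 5 genes on each side, 3 were called. The neighbours of fam177a1b were not examined on their own. The closest called neighbour was fbxo33, an F-box gene, with 19.6, 19.4 and 17.3 CPM in the double mutants and 12.3, 13.2 and 12.2 CPM in wild type (log2 fold change 0.58, SE 0.14, adjusted p = 0.00547). A stronger difference lay at nfkbiab, which encodes an inhibitor of NF-kB, with 166, 141 and 150.4 CPM in the double mutants and 86.9, 77.4 and 78.8 CPM in wild type (log2 fold change 0.91, SE 0.10, adjusted p = 1.31e-05). On the lower side stood pnn, a nuclear splicing and adhesion protein, with 31.9, 36.4 and 35.0 CPM in the double mutants and 51.8, 50.6 and 54.4 CPM in wild type (log2 fold change -0.60, SE 0.12, adjusted p = 0.00207). All 3 separated the groups, and none of them came near the size of the difference at fam177a1 itself.

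The largest decreases were of genes that had almost no counts in the double mutants. For acot15, an acyl-CoA thioesterase by name, no read was counted in any double mutant, against 12.7, 15.9 and 11.9 CPM in wild type. With 3 counts set over the group for the empty side, that is at least 241-fold lower (adjusted p = 8.24e-07). The finTRIM gene ftr52p was likewise without a count in the double mutants and had 2.74, 2.45 and 2.34 CPM in wild type, at least 45.4-fold lower (adjusted p = 7.96e-06). Double mutants had 1 count each of apip, which encodes an enzyme of the methionine salvage pathway, against 11.8, 15.8 and 16.0 CPM in wild type. The ratio of the summed counts was 258-fold lower, with an exact 95% counting interval from 88.0 to 1253 (adjusted p = 4.73e-10). Such bounds and intervals cover counting error only.

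Other strong decreases left a measurable remainder. The gene gask1a, which encodes a Golgi-associated kinase, had 0.237, 0.445 and 0.209 CPM in the double mutants and 9.31, 6.77 and 12.6 CPM in wild type (log2 fold change -4.98, SE 0.35, adjusted p = 1.46e-07). For plcd3b, a phospholipase C of the delta class, the values were 0.119, 0.167 and 0.314 CPM in the double mutants and 6.41, 5.12 and 5.88 CPM in wild type (log2 fold change -4.79, SE 0.43, adjusted p = 2.86e-06). The extracellular nucleotidase gene entpd3 had 0.534, 0.445 and 0.523 CPM in the double mutants and 10.5, 8.10 and 11.8 CPM in wild type (log2 fold change -4.33, SE 0.24, adjusted p = 8.10e-09). For these 3 genes, chosen under a condition of no overlap, every double mutant was far below every wild-type library. The gene hadhab, 1 of a pair that encode the alpha subunit of the trifunctional protein of mitochondrial fatty acid oxidation, had 7.95, 9.79 and 8.31 CPM in the double mutants and 144, 127 and 132 CPM in wild type (log2 fold change -3.95, SE 0.10, adjusted p = 1.10e-12). Its copy hadhaa moved the other way, with 99.2, 94.3 and 101 CPM in the double mutants and 74.0, 56.2 and 77.1 CPM in wild type (log2 fold change 0.51, SE 0.14, adjusted p = 0.0207). The call of hadhaa was lost without double-mutant replicate 3 (adjusted p = 0.0520) or wild-type replicate 2 (adjusted p = 0.0502). The transcripts of bnip4, related to mitophagy receptors, had 1.01, 0.445 and 0.523 CPM in the double mutants and 9.11, 8.58 and 7.48 CPM in wild type (log2 fold change -3.68, SE 0.27, adjusted p = 1.71e-07), and the zinc finger gene znf1179 had 2.14, 2.28 and 1.73 CPM in the double mutants and 19.3, 26.2 and 29.1 CPM in wild type (log2 fold change -3.60, SE 0.21, adjusted p = 4.65e-08).

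Among the largest increases were genes of MHC class I antigen presentation, which loads peptides cut by the proteasome onto class I molecules. Zebrafish lines are known to carry different haplotypes of this region, each with its own class I and immunoproteasome genes. The class I gene mhc1uka had 6.59, 6.06 and 9.31 CPM in the double mutants and 0.0806, 0 and 0.0459 CPM in wild type. On summed counts it was 161-fold higher, with an interval from 54.6 to 783 (adjusted p = 6.68e-04). Its relative mhc1uba had 4.99, 4.12 and 7.42 CPM in the double mutants and 0, 0.107 and 0 CPM in wild type, 182-fold higher with an interval from 49.9 to 1507 (adjusted p = 0.00370). The wild-type counts summed to 3 for mhc1uka, from replicates 1 and 3, and to 2 for mhc1uba, all from replicate 2, so without that library wild type stands at 0 for mhc1uba. Of the immunoproteasome subunits, psmb9a had 2.49, 1.84 and 3.29 CPM in the double mutants and 0, 0 and 0.367 CPM in wild type (log2 fold change 4.31, SE 0.77, adjusted p = 0.00165) and psmb13a had 1.90, 1.89 and 3.14 CPM in the double mutants and 0, 0 and 0.275 CPM in wild type (log2 fold change 4.56, SE 1.104, adjusted p = 0.0143). The call of psmb13a did not hold when wild-type replicate 1 was left out (adjusted p = 0.0508). Wild-type replicate 3 alone gave the wild-type counts of both subunits, so without it wild type stands at 0 and the fitted log2 fold changes become 8.58 and 8.44, which then rest on the prior count and are no bound. Of 26 antigen presentation genes tested, 10 rose and 1 fell (median log2 fold change 0.44). Outside the core class I genes, the peptide-trimming protease erap1a had 32.5, 21.5 and 31.2 CPM in the double mutants and 9.23, 11.9 and 12.1 CPM in wild type (log2 fold change 1.36, SE 0.15, adjusted p = 1.66e-05). The class I gene mhc1zba, of another lineage, had 194, 146 and 180.4 CPM in the double mutants and 132, 133 and 131 CPM in wild type (log2 fold change 0.40, SE 0.09, adjusted p = 0.00268).

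Further genes near the top of the list included metabolic enzymes and a keratin. For tdo2b, a tryptophan dioxygenase that opens the breakdown of tryptophan, the libraries gave 30.9, 26.1 and 29.5 CPM in the double mutants and 2.94, 3.41 and 1.97 CPM in wild type (log2 fold change 3.38, SE 0.21, adjusted p = 9.06e-07). The alcohol dehydrogenase gene adh8a had 37.9, 32.9 and 32.7 CPM in the double mutants and 3.67, 3.25 and 3.21 CPM in wild type (log2 fold change 3.35, SE 0.20, adjusted p = 2.44e-07). In the epidermis, the keratin gene krt96 had 42.4, 25.9 and 26.9 CPM in the double mutants and 2.096, 3.25 and 3.58 CPM in wild type (log2 fold change 3.42, SE 0.25, adjusted p = 7.64e-06). The double-mutant libraries were close to each other in tdo2b and adh8a, and replicate 1 was the highest in krt96. A further top gene, crhr2, a receptor for corticotropin-releasing hormones, had its fold change raised by 1 library. It had 1.31, 1.17 and 6.33 CPM in the double mutants and 0, 0.107 and 0.184 CPM in wild type, with double-mutant replicate 3 far above the others. Its log2 fold change was 4.91 (adjusted p = 0.0127), and 3.67 without that library, where the call was kept. Leaving out wild-type replicate 1 or replicate 2 ended the call, at an adjusted p of 0.0502 and 0.0510.

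Apoptosis genes were called both higher and lower, and the genes named here are all among those that rose. Of 51 p53 target and apoptosis genes, 21 rose and 10 fell (60.8% called), with a median log2 fold change of 0.08 and a range from -1.02 to 3.10. The share that fell was close to the 18% over all genes. The gene diabloa, whose human counterpart releases caspases from their inhibitors, had 166, 147 and 148 CPM in the double mutants and 17.1, 20.3 and 16.3 CPM in wild type (log2 fold change 3.10, SE 0.11, adjusted p = 5.61e-11). For pmaip1, the BH3-only protein Noxa, values were 30.3, 35.4 and 32.7 CPM in the double mutants and 5.19997, 6.98 and 4.18 CPM in wild type (log2 fold change 2.60, SE 0.20, adjusted p = 5.68e-06). The survival gene mcl1a also rose, with 217.1, 192 and 201 CPM in the double mutants and 88.8, 90.4 and 78.8 CPM in wild type (log2 fold change 1.24, SE 0.09, adjusted p = 1.71e-07). Cyclin G2, ccng2, had 71.8, 72.7 and 66.6 CPM in the double mutants and 39.3, 33.4 and 35.4 CPM in wild type (log2 fold change 0.96, SE 0.08, adjusted p = 6.81e-07). The groups were apart in each of these genes.

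**Figure D2:**
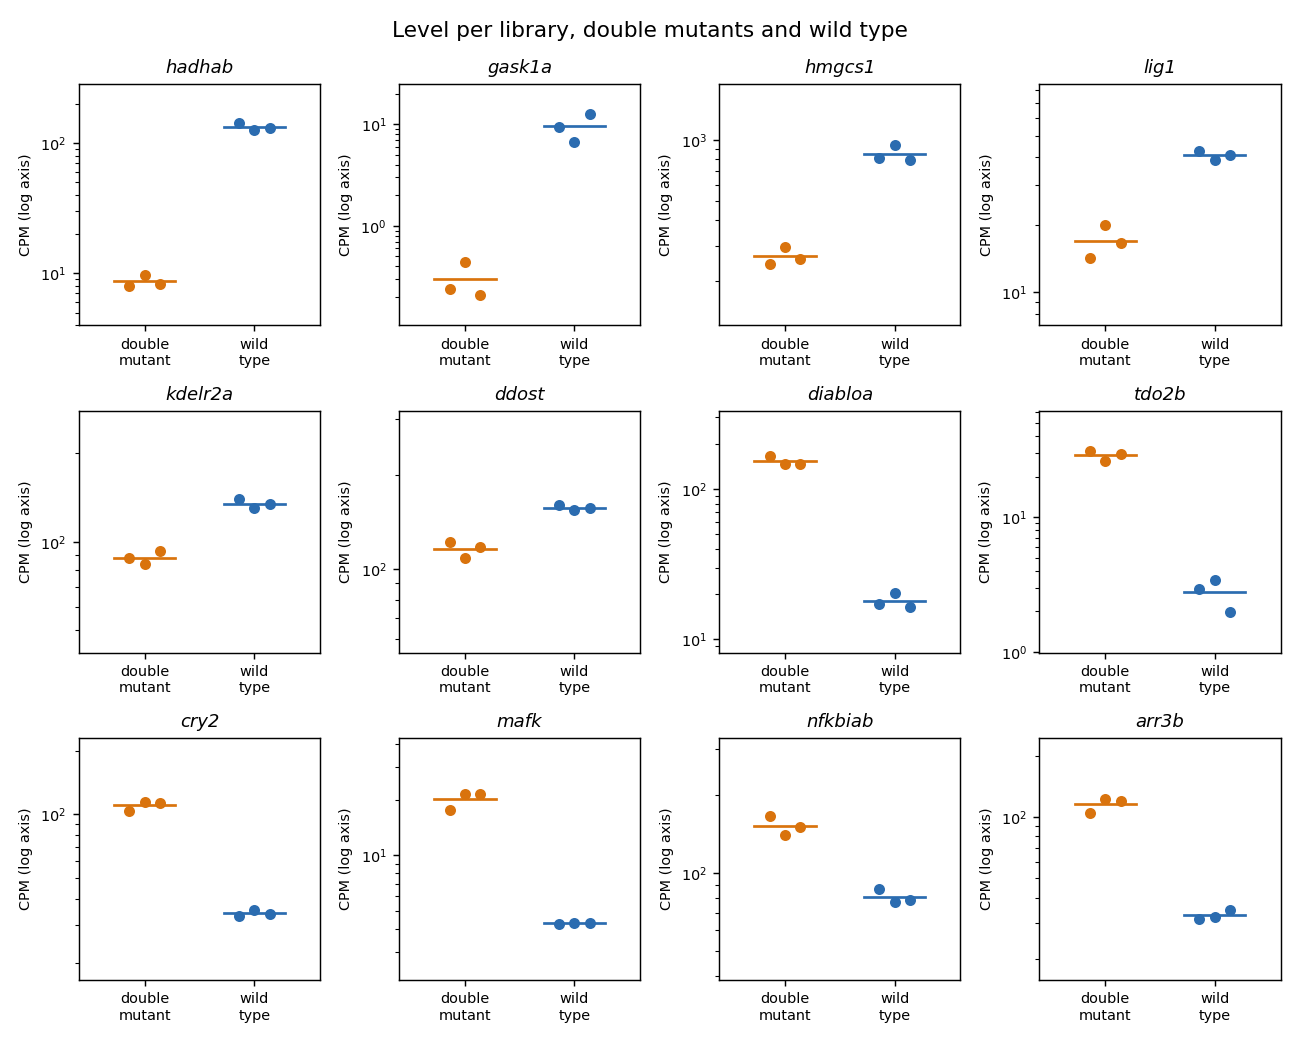
Level of 12 genes described in the text in each library, in CPM on log axes, with the 3 double mutants (orange) left of the 3 wild types (blue) and a bar at the mean of each genotype. The groups do not overlap in any panel, and the gap is wider at hadhab and gask1a than at kdelr2a or ddost.

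Genes of the Golgi itself gave calls in both directions. Of 42 tested genes of golgins, stacking proteins, tethering complexes and Golgi transporters, 5 rose and 5 fell, with a median log2 fold change of -0.03. That is 23.8% called, against 32.2% of all genes. The tethering subunit cog6 had 11.9, 12.3 and 12.4 CPM in the double mutants and 19.4, 20.7 and 22.1 CPM in wild type (log2 fold change -0.76, SE 0.10, adjusted p = 4.84e-05). For acbd3, a Golgi scaffold, values were 37.2, 34.7 and 35.08 CPM in the double mutants and 51.0, 55.6 and 53.7 CPM in wild type (log2 fold change -0.58, SE 0.08, adjusted p = 5.57e-05). The sialic acid transporter gene slc35a1 had 22.2, 24.4 and 24.1 CPM in the double mutants and 36.5, 34.6 and 33.5 CPM in wild type (log2 fold change -0.56, SE 0.09, adjusted p = 2.65e-04). In the other direction, vps13d, a lipid transfer gene of the VPS13 family, had 53.8, 53.004 and 58.8 CPM in the double mutants and 34.4, 37.1 and 33.1 CPM in wild type (log2 fold change 0.66, SE 0.08, adjusted p = 1.87e-05), and golph3l, a Golgi phosphoinositide-binding protein, had 48.7, 32.4 and 40.2 CPM in the double mutants and 24.6, 22.6 and 24.9 CPM in wild type (log2 fold change 0.75, SE 0.12, adjusted p = 2.37e-04). The golgin gene golga2, which encodes the stack protein GM130, showed no call, with 64.3, 62.2 and 65.1 CPM in the double mutants and 65.1, 71.4 and 67.3 CPM in wild type (log2 fold change -0.09, SE 0.09, adjusted p = 0.494). The number of Golgi genes that fell was 8 without single-mutant replicate 1. It was also 8 with the 6 libraries alone.

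Genes of traffic into and out of the endoplasmic reticulum fell more often than they rose. Among 46 genes of the COPII coat, cargo receptors, signal recognition particle and translocon, 20 fell and 4 rose (median log2 fold change -0.21). The retrieval receptor gene kdelr2a had 88.3, 84.0 and 92.8 CPM in the double mutants and 139.8, 131 and 134 CPM in wild type (log2 fold change -0.61, SE 0.07, adjusted p = 1.66e-05). For lman1, a cargo receptor for glycoproteins, values were 34.2, 35.4 and 33.4 CPM in the double mutants and 56.8, 54.9 and 53.3 CPM in wild type (log2 fold change -0.68, SE 0.10, adjusted p = 1.02e-04). The translocon partner gene sec63 fell as well, with 62.1, 64.6 and 64.4 CPM in the double mutants and 88.2, 84.1 and 89.7 CPM in wild type (log2 fold change -0.45, SE 0.07, adjusted p = 1.84e-04). The genes that rose included sec24d, a cargo-binding COPII subunit, with 88.6, 87.8 and 94.95 CPM in the double mutants and 75.2, 72.4 and 78.2 CPM in wild type (log2 fold change 0.27, SE 0.07, adjusted p = 0.0105). The differences of these 4 genes were below 2-fold, and no double mutant reached the wild-type range in any of them. The number of genes of this group that fell was 13 without double-mutant replicate 1, 11 without double-mutant replicate 2 and 11 without wild-type replicate 1.

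COPI coat, ARF and fusion genes and glycan enzymes were called at shares of 33.3% and 35.06%, close to the 32.2% of all genes. In the first group of 60 genes, 16 fell and 4 rose (median -0.10), and in the second of 77, 22 fell and 5 rose (median -0.17). The SNARE gene stx5a, which serves fusion at the cis-Golgi, had 30.0, 28.5 and 30.5 CPM in the double mutants and 43.7, 45.7 and 44.4 CPM in wild type (log2 fold change -0.59, SE 0.08, adjusted p = 5.79e-05). The small GTPase genes rab1ab and rab1aa, which both serve traffic into the Golgi, parted, with 56.0, 54.2 and 60.7 CPM in the double mutants and 76.7, 74.9 and 75.7 CPM in wild type for rab1ab (log2 fold change -0.41, SE 0.08, adjusted p = 7.89e-04). The copy rab1aa had 18.2, 12.9 and 22.8 CPM in the double mutants and 10.28, 9.43 and 7.30 CPM in wild type (log2 fold change 0.995, SE 0.19, adjusted p = 0.00175). The coat regulator arfgap1 rose, with 56.6, 59.6 and 55.5 CPM in the double mutants and 37.2, 36.7 and 38.5 CPM in wild type (log2 fold change 0.61, SE 0.08, adjusted p = 2.57e-05). The number of COPI, ARF and fusion genes that fell was 10 without double-mutant replicate 2. Among glycan enzymes, ddost, a subunit of the oligosaccharyltransferase, had 122, 108 and 117 CPM in the double mutants and 159.7, 155 and 156 CPM in wild type (log2 fold change -0.44, SE 0.07, adjusted p = 2.58e-04). In contrast, gfpt2, which feeds the hexosamine pathway, had 131, 114 and 107 CPM in the double mutants and 68.1, 67.5 and 63.9 CPM in wild type (log2 fold change 0.82, SE 0.09, adjusted p = 7.96e-06). The number of glycan enzymes that fell was 10 without double-mutant replicate 2 and 13 without double-mutant replicate 3. The number of glycan enzymes that rose was 10 without single-mutant replicate 1. In the fit of the 6 libraries alone, 25 glycan enzymes fell and 10 rose.

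Genes of protein folding in the endoplasmic reticulum were mostly lower or not called. Of 44, 19 fell and 8 rose (median -0.19). The chaperone calreticulin 3a, calr3a, had 203, 179 and 189 CPM in the double mutants and 274, 251 and 252 CPM in wild type (log2 fold change -0.44, SE 0.08, adjusted p = 7.64e-04). For manf, a secreted folding factor, values were 40.7, 33.8 and 33.99 CPM in the double mutants and 58.6, 59.16 and 55.3 CPM in wild type (log2 fold change -0.67, SE 0.13, adjusted p = 0.00118). The AMPylation enzyme gene ficd had 9.91, 8.01 and 9.93 CPM in the double mutants and 16.5, 15.5 and 16.2 CPM in wild type (log2 fold change -0.79, SE 0.12, adjusted p = 1.69e-04). The number of folding genes that fell was 12 without double-mutant replicate 1, 12 without double-mutant replicate 3 and 11 without wild-type replicate 1. The number of folding genes that rose was 4 without double-mutant replicate 1, 4 without double-mutant replicate 3, 4 without wild-type replicate 2 and 4 without wild-type replicate 3. Some regulators of the stress response were higher. The transcription factor gene ddit3, known as CHOP, had 44.0, 45.8 and 46.7 CPM in the double mutants and 30.9, 29.2 and 30.3 CPM in wild type (log2 fold change 0.59, SE 0.09, adjusted p = 1.74e-04), and crebrf, whose human counterpart promotes the breakdown of the stress factor CREB3, had 14.8, 13.2 and 14.7 CPM in the double mutants and 4.76, 5.12 and 3.12 CPM in wild type (log2 fold change 1.72, SE 0.17, adjusted p = 4.09e-06). The main chaperone gene hspa5 had 381, 340.5 and 370.2 CPM in the double mutants and 656, 709.7 and 676 CPM in wild type (log2 fold change -0.90, SE 0.25, adjusted p = 0.0341). The groups did not overlap, but the call of hspa5 was lost when any 1 double-mutant or wild-type library was left out (highest adjusted p = 0.10998) or single-mutant replicate 3 (adjusted p = 0.0513). With the 6 libraries fitted alone its adjusted p was 9.71e-10.

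Lysosomal genes showed few calls, and calls in autophagy genes were more often higher. Among 61 lysosomal genes, 3 rose and 9 fell (median 0.02), and with the 6 libraries fitted alone 13 rose and 10 fell. The lysosomal membrane receptor gene scarb2a had 164, 161 and 157 CPM in the double mutants and 268, 309 and 249 CPM in wild type (log2 fold change -0.78, SE 0.08, adjusted p = 4.74e-06). The number of lysosomal genes that fell was 5 without double-mutant replicate 2, 5 without double-mutant replicate 3, 4 without wild-type replicate 1 and 5 without wild-type replicate 2. Of 50 autophagy genes, 15 rose and 6 fell (median 0.20). The initiating kinases rose, ulk1b with 36.1, 33.6 and 35.6 CPM in the double mutants and 21.8, 22.8 and 20.7 CPM in wild type (log2 fold change 0.69, SE 0.09, adjusted p = 3.46e-05) and ulk1a with 12.2, 9.62 and 12.7 CPM in the double mutants and 5.44, 4.32 and 5.10 CPM in wild type (log2 fold change 1.21, SE 0.19, adjusted p = 3.67e-04). Their scaffold rb1cc1 had 59.6, 57.1 and 58.6 CPM in the double mutants and 40.3, 36.8 and 33.0 CPM in wild type (log2 fold change 0.67, SE 0.10, adjusted p = 1.30e-04). The lipid scramblase gene atg9a, which seeds the autophagosome membrane, had 32.2, 29.8 and 29.8 CPM in the double mutants and 16.8, 20.1 and 15.9 CPM in wild type (log2 fold change 0.80, SE 0.13, adjusted p = 2.86e-04).

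Enzymes of cholesterol synthesis were lower almost without exception. Of 23 enzymes tested, 21 fell and none rose, with a median log2 fold change of -1.26. Summed over the pathway, the double mutants had between 1178 and 1372 CPM, against 2867 to 3422 CPM in wild type. The synthase hmgcs1, which makes HMG-CoA, had 243, 297 and 257 CPM in the double mutants and 809, 946 and 795 CPM in wild type (log2 fold change -1.68, SE 0.14, adjusted p = 2.89e-05). The rate-limiting reductase hmgcra had 208, 222 and 215 CPM in the double mutants and 451, 477 and 390.3 CPM in wild type (log2 fold change -1.03, SE 0.09, adjusted p = 1.55e-06). Further down, nsdhl, which removes methyl groups from the ring, had 19.3, 20.0 and 21.0 CPM in the double mutants and 59.9, 65.4 and 55.0 CPM in wild type (log2 fold change -1.58, SE 0.09, adjusted p = 1.06e-08). For dhcr7, the last reductase, values were 85.9, 101 and 93.0 CPM in the double mutants and 179, 184 and 172 CPM in wild type (log2 fold change -0.93, SE 0.08, adjusted p = 1.16e-06). Every double mutant lay below every wild type in these genes.

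The regulators of the sterol pathway did not move as 1 group. Of 19, 7 fell and 3 rose, and with the 6 libraries fitted alone 7 fell and 7 rose. The number of sterol regulators that fell was 4 without double-mutant replicate 2. The number that rose lay between 1 (without double-mutant replicate 3) and 6 (without single-mutant replicate 1). The transcription factor gene srebf2, which drives the enzymes, had 77.4, 73.9 and 81.8 CPM in the double mutants and 115, 112 and 112 CPM in wild type (log2 fold change -0.54, SE 0.07, adjusted p = 3.81e-05), and its escort scap had 22.0, 22.4 and 22.1 CPM in the double mutants and 30.3, 31.1 and 29.9 CPM in wild type (log2 fold change -0.46, SE 0.09, adjusted p = 8.47e-04). The LDL receptor gene ldlra, a known target of the same factor, was higher, with 55.3, 55.2 and 65.2 CPM in the double mutants and 38.3, 39.9 and 39.6 CPM in wild type (log2 fold change 0.58, SE 0.14, adjusted p = 0.00673). Its copy ldlrb, named after its values were seen, was called lower, just under the threshold. Calls in fatty acid genes also ran both ways. Of 20 genes of fatty acid synthesis, 7 fell and 2 rose (45% called, median log2 fold change -0.09). The citrate-cleaving enzyme gene aclya had 105, 108 and 108 CPM in the double mutants and 158, 178 and 152 CPM in wild type (log2 fold change -0.61, SE 0.07, adjusted p = 1.95e-05), and the elongase elovl6 had 16.4, 15.0 and 16.8 CPM in the double mutants and 29.1, 29.2 and 28.0 CPM in wild type (log2 fold change -0.84, SE 0.11, adjusted p = 5.82e-05). Of 31 oxidation genes, 9 fell and 4 rose, among them the muscle carnitine transferase cpt1b with 27.8, 28.0 and 30.4 CPM in the double mutants and 11.8, 11.5 and 12.8 CPM in wild type (log2 fold change 1.26, SE 0.22, adjusted p = 0.00208). The number of oxidation genes that fell was 5 without double-mutant replicate 2, 4 without wild-type replicate 1 and 14 without single-mutant replicate 1. The number of oxidation genes that rose was 2 without double-mutant replicate 3.

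Genes of DNA replication and mitosis fell together. Of 55 replication genes, 48 fell and none rose (median log2 fold change -0.62), and of 57 mitosis genes, 39 fell and none rose (median -0.54). The DNA ligase gene lig1 had 14.2, 19.9 and 16.5 CPM in the double mutants and 42.7, 38.9 and 40.9 CPM in wild type (log2 fold change -1.28, SE 0.12, adjusted p = 2.06e-06). The sliding clamp gene pcna had 227, 235 and 230.4 CPM in the double mutants and 400.1, 369 and 401 CPM in wild type (log2 fold change -0.76, SE 0.11, adjusted p = 3.96e-04). For tipin, a fork protection factor, values were 6.88, 6.73 and 8.99 CPM in the double mutants and 19.03, 18.3 and 17.3 CPM in wild type (log2 fold change -1.27, SE 0.13, adjusted p = 5.37e-06). In mitosis, the cyclin-dependent kinase gene cdk1 had 23.7, 19.1 and 23.2 CPM in the double mutants and 36.8, 35.2 and 35.12 CPM in wild type (log2 fold change -0.70, SE 0.10, adjusted p = 8.78e-05), and the condensin gene smc2 had 52.2, 46.9 and 49.2 CPM in the double mutants and 74.7, 77.3 and 82.7 CPM in wild type (log2 fold change -0.66, SE 0.08, adjusted p = 1.38e-05). The proliferation marker mki67 differed less, with 122, 103 and 110.1 CPM in the double mutants and 146, 142 and 147 CPM in wild type (log2 fold change -0.38, SE 0.08, adjusted p = 0.00154). The double mutants lay below wild type in all 6 of these genes. The number of mitosis genes that fell was 25 without wild-type replicate 1.

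Genes that build and fold proteins were lower in smaller steps. Ribosome biogenesis genes of the nucleolus fell in 34 of 80 cases and rose in 4 (median -0.24). The snoRNP protein gene nop58 had 86.2, 93.7 and 95.1 CPM in the double mutants and 192, 212 and 196 CPM in wild type (log2 fold change -1.12, SE 0.11, adjusted p = 8.04e-06), and the assembly factor gene rrs1 had 24.6, 21.9 and 21.6 CPM in the double mutants and 51.3, 52.7 and 52.2 CPM in wild type (log2 fold change -1.20, SE 0.14, adjusted p = 4.66e-05). Of 74 mitochondrial ribosomal protein genes, 33 fell and 1 rose (median -0.27), for example mrps23 with 9.14, 7.68 and 7.01 CPM in the double mutants and 16.6, 16.1 and 14.1 CPM in wild type (log2 fold change -0.98, SE 0.15, adjusted p = 1.43e-04). The number of mitochondrial ribosomal genes that fell was 20 without double-mutant replicate 1, 21 without double-mutant replicate 3 and 19 without wild-type replicate 1. Proteasome subunits fell in 22 of 36 and rose in none (median -0.25). The number of proteasome genes that fell was 14 without double-mutant replicate 1, 7 without double-mutant replicate 2, 8 without double-mutant replicate 3 and 9 without wild-type replicate 1. The catalytic subunit psmb7 had 74.2, 76.4 and 78.2 CPM in the double mutants and 110.5, 97.5 and 104 CPM in wild type (log2 fold change -0.45, SE 0.07, adjusted p = 3.08e-04). Cytosolic ribosomal proteins showed 10 lower and 4 higher of 77 (median -0.04), a share of 18.2% that is below the background. The number of cytosolic ribosomal genes that fell was 3 without double-mutant replicate 1, 4 without double-mutant replicate 2, 3 without double-mutant replicate 3, 3 without wild-type replicate 1, 4 without wild-type replicate 2 and 23 without wild-type replicate 3. The number of cytosolic ribosomal genes that rose was 8 without wild-type replicate 1. Of 48 cytosolic heat shock proteins and cochaperones, 23 fell and 3 rose. The cochaperone ahsa1b, which activates Hsp90, had 25.04, 22.2 and 25.4 CPM in the double mutants and 43.8, 51.7 and 46.3 CPM in wild type (log2 fold change -0.96, SE 0.13, adjusted p = 1.00e-04). The transcription factor gene hsf2 stood against them, with 62.7, 60.0 and 58.8 CPM in the double mutants and 23.9, 19.1 and 22.0 CPM in wild type (log2 fold change 1.48, SE 0.09, adjusted p = 3.19e-08).

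**Figure D3:**
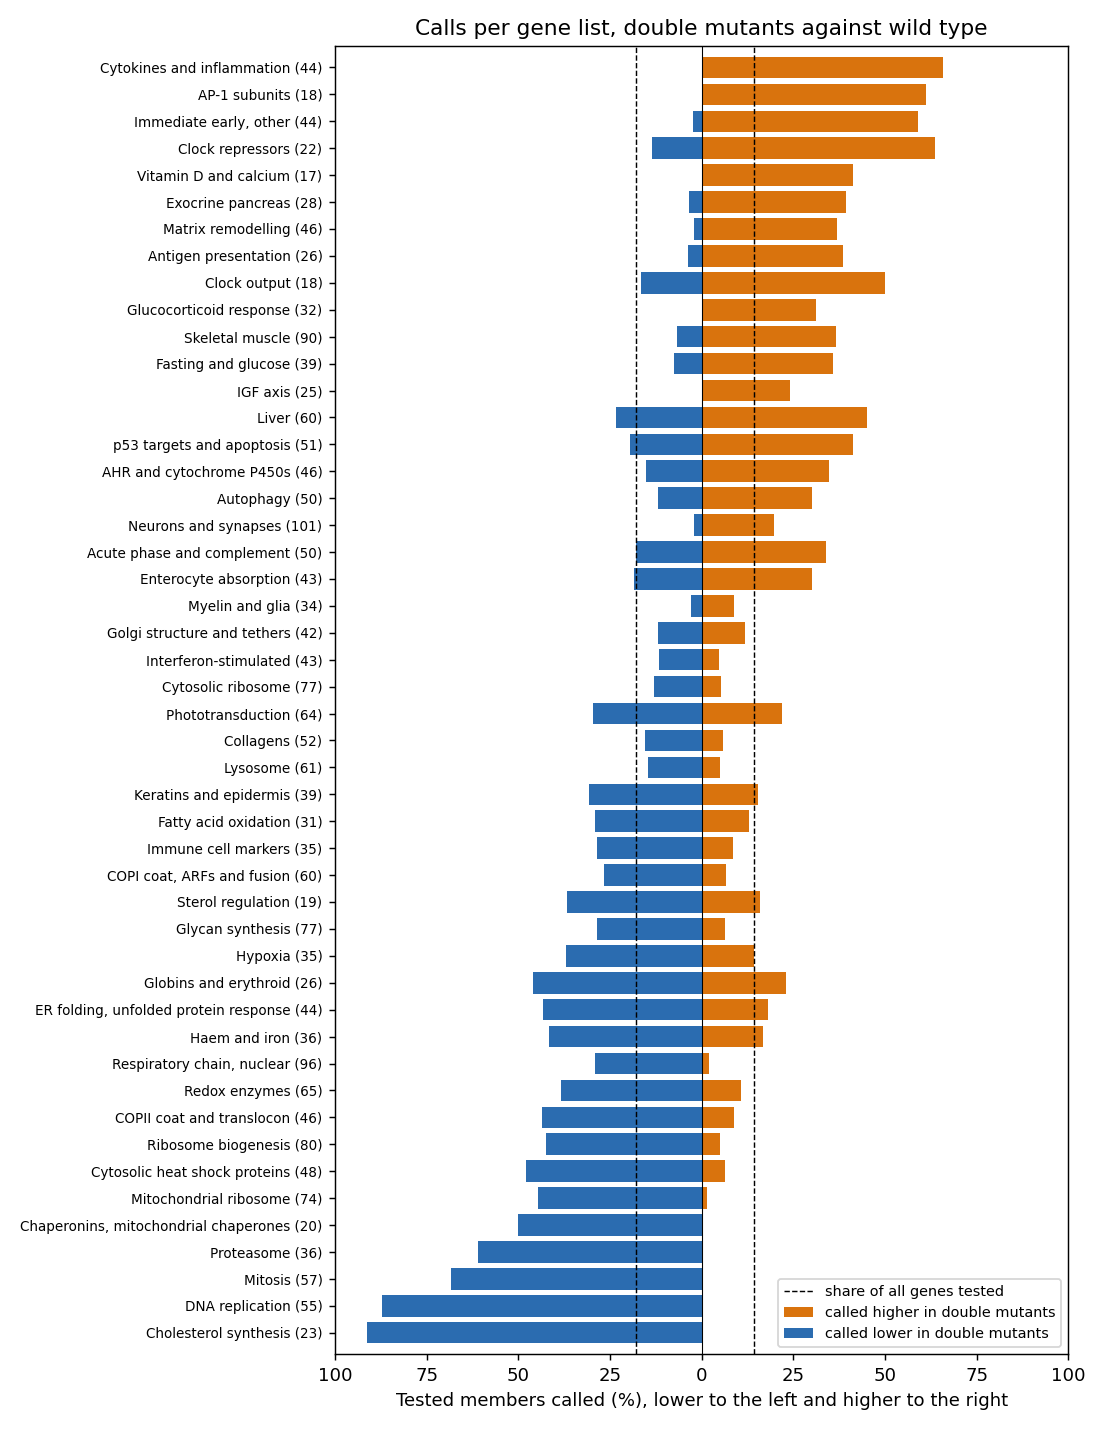
Share of the tested members of each gene list that were called higher (orange, to the right) or lower (blue, to the left) in double mutants, in percent, with the number tested in brackets. Dashed lines mark the shares over all genes tested, 14.2% higher and 18% lower; cholesterol synthesis, DNA replication and mitosis lie far to the left, and inflammation, clock repressors and AP-1 subunits far to the right.

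Genes listed as repressors of the circadian clock were mostly higher. Clock genes form a loop in which Clock and Bmal proteins switch on Per, Cry and Rev-erb genes, whose products switch them off again. Of 22 genes listed as repressors of the loop, 14 rose and 3 fell (median log2 fold change 1.04). The gene per1a had 54.8, 61.3 and 60.0 CPM in the double mutants and 13.9, 13.4 and 14.6 CPM in wild type (log2 fold change 2.07, SE 0.23, adjusted p = 3.86e-04). For cry2, values were 104, 115 and 113 CPM in the double mutants and 33.2, 35.5 and 33.9 CPM in wild type (log2 fold change 1.69, SE 0.10, adjusted p = 2.71e-08). The repressor gene bhlhe41 had 75.3, 77.3 and 84.1 CPM in the double mutants and 24.9, 23.0 and 23.4 CPM in wild type (log2 fold change 1.73, SE 0.09, adjusted p = 2.77e-09), and ciarta, which represses Clock and Bmal, had 132, 126 and 135 CPM in the double mutants and 40.3, 35.5 and 34.8 CPM in wild type (log2 fold change 1.83, SE 0.10, adjusted p = 7.49e-09). These genes stood apart without overlap. The 3 that fell, named after their values were seen, were cry3a, cry3b and cry4. They are listed with the other Cry genes, and whether these 3 repress the loop was not tested. On the activating side, 6 of 11 genes fell and 3 rose (median -0.39). Among those that fell was arntl1a, a Bmal gene, with 12.6, 14.7 and 14.5 CPM in the double mutants and 27.0, 30.6 and 29.4 CPM in wild type (log2 fold change -1.05, SE 0.11, adjusted p = 6.45e-06). Of 18 clock output genes, 9 rose and 3 fell (median 0.64). The output factor gene dbpb had 78.0, 74.1 and 77.3 CPM in the double mutants and 19.6, 18.4 and 19.4 CPM in wild type (log2 fold change 2.00, SE 0.11, adjusted p = 1.59e-08), and the light-repair photolyase gene cry5 had 35.8, 36.9 and 38.7 CPM in the double mutants and 16.6, 14.8 and 12.2 CPM in wild type (log2 fold change 1.35, SE 0.12, adjusted p = 1.85e-06). The hour of collection is not given in the labels.

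More than 50% of AP-1 subunits and of inflammatory genes rose. Of 18 AP-1 subunits, 11 rose and none fell (median 1.55), and of 44 genes of cytokines and their signalling, 29 rose and none fell (median 0.95). The small Maf gene mafk had 17.7, 21.4 and 21.6 CPM in the double mutants and 4.23, 4.32 and 4.32 CPM in wild type (log2 fold change 2.24, SE 0.20, adjusted p = 7.96e-06). The subunit atf3, induced by many stresses, had 53.2, 51.1 and 52.3 CPM in the double mutants and 7.74, 11.5 and 10.1 CPM in wild type (log2 fold change 2.42, SE 0.35, adjusted p = 0.00246). The core subunit gene jun had 128, 117 and 116 CPM in the double mutants and 64.8, 58.8 and 58.1 CPM in wild type (log2 fold change 0.99, SE 0.17, adjusted p = 0.00183). Among inflammatory genes, the chemokine cxcl18b had 9.50, 6.01 and 8.84 CPM in the double mutants and 1.85, 1.87 and 1.84 CPM in wild type (log2 fold change 2.13, SE 0.24, adjusted p = 1.23e-05). The receptor gene il4r.1 had 33.2, 30.5 and 32.2 CPM in the double mutants and 14.6, 15.0 and 13.4 CPM in wild type (log2 fold change 1.16, SE 0.12, adjusted p = 4.68e-06), and socs3b, a feedback inhibitor of cytokine signalling, had 50.7, 47.6 and 42.3 CPM in the double mutants and 19.8, 18.2 and 15.3 CPM in wild type (log2 fold change 1.398, SE 0.24, adjusted p = 0.00342). For nfkb2, a subunit of NF-kB, values were 44.2, 39.0 and 42.4 CPM in the double mutants and 26.1, 23.7 and 22.5 CPM in wild type (log2 fold change 0.80, SE 0.09, adjusted p = 7.71e-06). The wild-type libraries of cxcl18b were nearly equal, and double-mutant replicate 2 was the lowest of its genotype.

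Calls in markers of immune cells were more often lower than higher. Of 35 tested, 10 fell and 3 rose (median -0.12), a share of 37.1% that is close to the 32.2% of all genes. Their summed level was 2999 to 3219 CPM in the double mutants and 3185 to 3384 CPM in wild type, so the groups overlapped. The leukocyte actin-bundling gene lcp1 had 58.5, 58.5 and 56.3 CPM in the double mutants and 87.3, 86.3 and 91.8 CPM in wild type (log2 fold change -0.62, SE 0.08, adjusted p = 3.08e-05). The macrophage gene mpeg1.2 was an exception, with 56.9, 66.7 and 50.5 CPM in the double mutants and 22.4, 24.7 and 15.8 CPM in wild type (log2 fold change 1.47, SE 0.23, adjusted p = 0.00174). The number of immune markers that fell was 6 without double-mutant replicate 2, 5 without double-mutant replicate 3 and 6 without wild-type replicate 2. Interferon-stimulated genes gave 2 higher and 5 lower of 43 (median 0.00026), a share of 16.3%. The ubiquitin ligase trim25, part of viral RNA sensing, had 20.6, 16.0 and 18.4 CPM in the double mutants and 36.8, 38.4 and 38.0 CPM in wild type (log2 fold change -1.04, SE 0.10, adjusted p = 3.59e-06). The number of interferon-stimulated genes that fell was 3 without double-mutant replicate 1, 2 without double-mutant replicate 3, 3 without wild-type replicate 1 and 3 without wild-type replicate 2. With the 6 libraries alone, 8 were higher and 7 lower. DESeq2 and the replicate block each gave 6 higher, and leaving out 1 library gave between 1 and 7 (5 without double-mutant replicate 2, 4 without wild-type replicate 2, 7 without single-mutant replicate 1 and 5 without single-mutant replicate 2). Complement and acute phase genes had 17 higher and 9 lower calls of 50 (52% called, median 0.15). The lower calls were no larger a share than the 18% over all genes. The number of complement and acute phase genes that fell was 5 without double-mutant replicate 3. The complement gene c3a.3 had 169.8, 185 and 156 CPM in the double mutants and 57.7, 72.2 and 66.7 CPM in wild type (log2 fold change 1.38, SE 0.11, adjusted p = 6.16e-07), while crp2, of the C-reactive protein family, had 28.2, 31.4 and 27.5 CPM in the double mutants and 82.5, 86.2 and 75.4 CPM in wild type (log2 fold change -1.49, SE 0.10, adjusted p = 8.10e-08) and cfhl1, related to complement factor H, had 0.9495, 0.723 and 0.732 CPM in the double mutants and 8.26, 9.65 and 8.35 CPM in wild type (log2 fold change -3.44, SE 0.25, adjusted p = 1.46e-07).

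For 5 stress and growth genes whose double mutants and wild types did not overlap, the call depended on the tool and on which libraries shared the fit. The single-mutant libraries, which differ among themselves, share the estimate of the spread. The immediate early gene fosab had 127, 121 and 125 CPM in the double mutants and 28.0, 27.3 and 29.2 CPM in wild type, with no overlap, and still gave an adjusted p of 0.106 (log2 fold change 2.14). With the 6 libraries fitted alone, the adjusted p was 2.62e-15. It was 0.0178 without single-mutant replicate 1, 0.0190 without replicate 2 and 0.128 without replicate 3. DESeq2 called fosab with all 9 libraries (adjusted p = 0.0299) and limma-voom did not (adjusted p = 0.103). The zinc finger gene egr1 had 97.0, 85.9 and 94.6 CPM in the double mutants and 16.0, 20.7 and 20.4 CPM in wild type, an adjusted p of 0.0546 (log2 fold change 2.28) and 2.23e-12 in the 6 libraries alone. Both DESeq2 (adjusted p = 0.00456) and limma-voom (adjusted p = 0.0454) called egr1 with all 9. The interleukin gene il1b had 10.4, 4.84 and 5.59 CPM in the double mutants and 0.887, 1.07 and 0.734 CPM in wild type (log2 fold change 2.95, adjusted p = 0.102, and 5.79e-06 in the 6 libraries alone). With all 9 libraries, DESeq2 called il1b (adjusted p = 0.00440) and limma-voom did not (adjusted p = 0.251). On the lower side, fkbp5, a target of the glucocorticoid receptor, had 166, 164 and 208 CPM in the double mutants and 305, 318 and 331 CPM in wild type (log2 fold change -0.83, adjusted p = 0.395, and 9.85e-07 alone). Neither DESeq2 (adjusted p = 0.360) nor limma-voom (adjusted p = 0.462) called fkbp5 with all 9, but the fit without single-mutant replicate 1 did (adjusted p = 1.63e-07). The replication helicase gene mcm5 had 103, 101 and 100.03 CPM in the double mutants and 186, 179.9 and 187 CPM in wild type (log2 fold change -0.86, adjusted p = 0.0534, and 6.38e-10 alone). DESeq2 (adjusted p = 0.0163), limma-voom (adjusted p = 0.0288) and each fit without 1 single-mutant library (adjusted p between 4.61e-10 and 0.0434) called mcm5. Over all genes, 8694 were called with the 6 libraries alone. Of these, 6932 were also among the 6990 calls given above, 1762 were not, and 58 genes were called only with all 9 libraries. With the 6 libraries alone, 14 AP-1 subunits, 35 of 44 other immediate early genes and 32 inflammatory genes rose, against 11, 26 and 29 with all 9. The number of other immediate early genes that rose was 17 without double-mutant replicate 1, 17 without double-mutant replicate 2, 16 without wild-type replicate 2 and 16 without wild-type replicate 3.

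**Figure D4:**
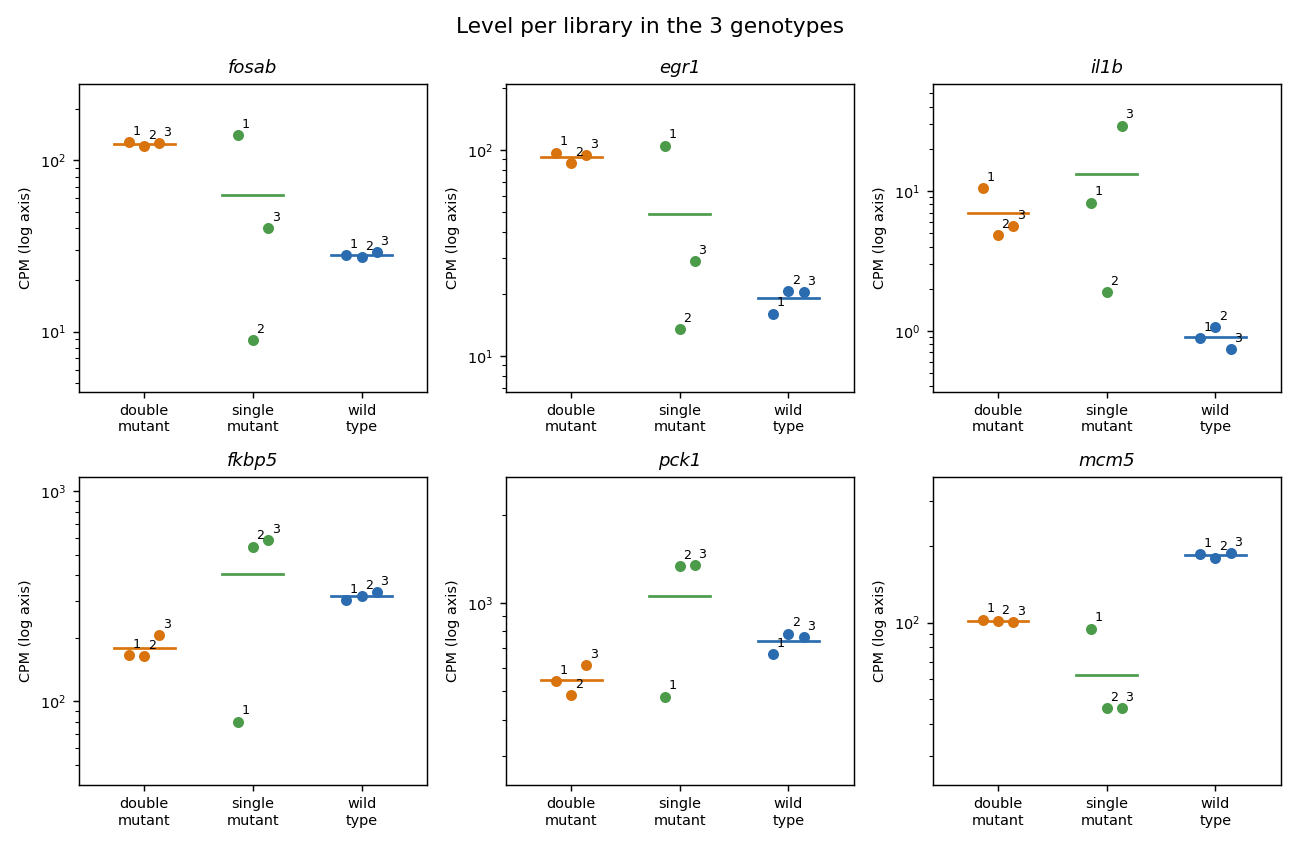
Level of 6 genes in each of the 9 libraries, in CPM on log axes, with double mutants (orange), single mutants (green) and wild type (blue) from left to right and points labelled by replicate. The double mutants and wild types do not overlap in any panel, while the single mutants spread widely. Their replicate 1 lies apart from replicates 2 and 3 in fkbp5, pck1 and mcm5, and their replicate 3 is the highest in il1b. In fosab and egr1 the spread does not rest on replicate 1 alone, as leaving out single-mutant replicate 1 or replicate 2 each gave a call.

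Calls in genes of fasting, insulin signalling and growth control were more often higher than lower. Of 39 genes of fasting and glucose handling, 14 rose and 3 fell (median log2 fold change 0.28). Log2 fold changes in this list ran from -4.69 to 2.82, so its largest difference was a decrease. With the 6 libraries alone or without single-mutant replicate 1, 20 rose and 7 fell. The insulin receptor substrate gene irs2a had 63.3, 72.5 and 66.3 CPM in the double mutants and 8.99, 12.8 and 10.6 CPM in wild type (log2 fold change 2.65, SE 0.37, adjusted p = 0.00229). The secreted lipase inhibitor gene angptl4 had 159, 166 and 169.8 CPM in the double mutants and 74.0, 58.0 and 66.3 CPM in wild type (log2 fold change 1.32, SE 0.12, adjusted p = 7.81e-06), and the transcription factor gene klf15 had 74.6, 75.4 and 80.1 CPM in the double mutants and 37.5, 41.1 and 35.9 CPM in wild type (log2 fold change 1.01, SE 0.09, adjusted p = 9.45e-07). Of 25 genes of the IGF axis, 6 rose and none fell, against 10 and 1 with the 6 libraries alone. With all 9 libraries, the share called in this axis was 24%, below the 32.2% of all genes. The binding protein igfbp1a, which holds IGFs away from their receptors, had 158, 151 and 126 CPM in the double mutants and 28.5, 33.4 and 28.3 CPM in wild type (log2 fold change 2.27, SE 0.31, adjusted p = 0.00203). The growth hormone receptor gene ghrb had 45.1, 39.4 and 56.8 CPM in the double mutants and 14.8, 15.3 and 14.3 CPM in wild type (log2 fold change 1.67, SE 0.12, adjusted p = 1.00e-07). The number of IGF axis genes that rose was 10 without single-mutant replicate 1. Glucocorticoid-responsive genes rose in 10 of 32 cases and fell in none, but with the 6 libraries alone 15 rose and 7 fell. Their share called with all 9 libraries was 31.25%, close to that of all genes. The factor gene cebpd had 400.2, 384 and 402 CPM in the double mutants and 177, 153 and 142 CPM in wild type (log2 fold change 1.33, SE 0.15, adjusted p = 1.67e-04). The number of glucocorticoid genes that rose was 6 without wild-type replicate 3. In muscle, the atrophy ligase trim63a had 46.7, 44.0 and 52.7 CPM in the double mutants and 21.8, 17.3 and 19.4 CPM in wild type (log2 fold change 1.29, SE 0.29, adjusted p = 0.0132). Of 34 genes of the response to amino acid stress, 9 rose and 6 fell (median 0.12). The largest increase among them was of nupr1b, a stress gene induced by amino acid shortage. It had 81.1, 88.2 and 89.4 CPM in the double mutants and 15.6, 20.4 and 17.2 CPM in wild type (log2 fold change 2.28, SE 0.14, adjusted p = 5.07e-07). Double-mutant replicate 3 was the highest in ghrb and the lowest of its genotype in igfbp1a.

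Globin and red cell genes moved in both directions. Of 26 globin and red cell genes, 12 fell and 6 rose. Their summed level was 4039 to 4387 CPM in the double mutants and 3845 to 5239 CPM in wild type, so the groups overlapped. The embryonic alpha globin gene hbae1.1 had 10.4, 9.84 and 9.10 CPM in the double mutants and 118, 98.0 and 74.1 CPM in wild type (log2 fold change -3.31, SE 0.21, adjusted p = 6.47e-06), and the beta globin gene hbbe1.3 had 272, 290.3 and 288 CPM in the double mutants and 815, 685 and 573 CPM in wild type (log2 fold change -1.29, SE 0.12, adjusted p = 1.11e-05). The alpha globin gene hbae5 was higher, with 127, 141 and 117 CPM in the double mutants and 34.9, 40.5 and 19.5 CPM in wild type (log2 fold change 2.02, SE 0.25, adjusted p = 7.99e-04). Globin genes of a cluster are near-identical in sequence, and how the counting shared reads between them is not given in the sources used here. Haem and iron genes fell in 15 and rose in 6 of 36, with log2 fold changes from -3.04 to 3.93. Their summed level was higher in the double mutants, at 4287 to 4433 CPM against 3679 to 4033 CPM in wild type. The haem synthesis gene hmbsb had 16.6, 14.2 and 19.9 CPM in the double mutants and 35.0, 37.6 and 32.1 CPM in wild type (log2 fold change -1.05, SE 0.12, adjusted p = 1.68e-05). The gene steap3, which reduces iron for uptake, had 0.237, 0.167 and 0.680 CPM in the double mutants and 3.22, 3.25 and 2.75 CPM in wild type (log2 fold change -3.04, SE 0.39, adjusted p = 3.90e-05), and a log2 fold change of -3.87 without double-mutant replicate 3.

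Redox, oxygen and xenobiotic genes gave calls in both directions. Of 35 hypoxia genes, 13 fell and 5 rose (median -0.19). The number of hypoxia genes that fell was 7 without double-mutant replicate 1, 5 without double-mutant replicate 2, 5 without double-mutant replicate 3, 6 without wild-type replicate 1, 8 without wild-type replicate 2 and 6 without wild-type replicate 3. Of 65 redox genes, 25 fell and 7 rose (median -0.19). The pentose phosphate enzyme gene pgd had 60.1, 64.3 and 60.5 CPM in the double mutants and 111, 117 and 109 CPM in wild type (log2 fold change -0.87, SE 0.07, adjusted p = 5.32e-07), and the peroxiredoxin gene prdx1 had 34.8, 32.8 and 35.3 CPM in the double mutants and 60.4, 56.2 and 59.5 CPM in wild type (log2 fold change -0.78, SE 0.10, adjusted p = 3.58e-05). The bile transporter gene abcc2 rose, with 146, 137 and 167 CPM in the double mutants and 77.5, 98.8 and 88.7 CPM in wild type (log2 fold change 0.77, SE 0.09, adjusted p = 2.67e-05). Aryl hydrocarbon receptor and xenobiotic P450 genes had 16 higher and 7 lower calls of 46 (50% called, median 0.19). The lower calls were no larger a share than the 18% over all genes. The number of receptor and P450 genes that fell was 3 without double-mutant replicate 2, 4 without double-mutant replicate 3 and 3 without wild-type replicate 3. The receptor gene ahr2 had 118, 115 and 119 CPM in the double mutants and 72.8, 70.9 and 75.4 CPM in wild type and its target cyp1a 135, 129 and 146 CPM in the double mutants and 87.9, 81.1 and 75.3 CPM in wild type, both higher (log2 fold changes 0.68 and 0.75, adjusted p = 3.59e-06 and 2.56e-04). The receptor copy ahr1a had 0.475, 0.167 and 0.471 CPM in the double mutants and 3.55, 3.46 and 5.33 CPM in wild type (log2 fold change -3.45, SE 0.38, adjusted p = 8.64e-06). In the vitamin D group, 7 of 17 rose and none fell, while 8 rose and 3 fell with the 6 libraries alone or without single-mutant replicate 1. A single gene fell without wild-type replicate 1, wild-type replicate 3 or single-mutant replicate 3. In it, the receptor gene vdrb had 33.1, 33.3 and 31.1 CPM in the double mutants and 19.6, 21.1 and 23.0 CPM in wild type (log2 fold change 0.61, SE 0.14, adjusted p = 0.00449). The gene cyp24a1, whose enzyme inactivates vitamin D, had 21.3, 17.7 and 19.8 CPM in the double mutants and 1.37, 1.07 and 0.321 CPM in wild type (log2 fold change 4.39, SE 1.01, adjusted p = 0.0183), a call that was lost without wild-type replicate 1, 2 or 3 (adjusted p = 0.0535, 0.0567 and 0.0606).

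Calls in skeletal muscle and exocrine pancreas genes were more often higher than lower. Of 90 skeletal muscle genes, 33 rose and 6 fell (median 0.17), and their summed level was 121604 to 127099 CPM in the double mutants and 98573 to 111448 CPM in wild type. The fast myosin heavy chain gene myhz1.2 had 6228, 6241 and 6334 CPM in the double mutants and 2518, 2959 and 3811 CPM in wild type (log2 fold change 1.02, SE 0.16, adjusted p = 0.00231). Its neighbour myhz1.1 had 13689.8, 13895 and 13232 CPM in the double mutants and 6445, 7619.9 and 9541 CPM in wild type (log2 fold change 0.79, SE 0.17, adjusted p = 0.0120), and reads of these near-identical genes may be split between them. Troponin T, tnnt3a, fell, with 211, 220.2 and 188 CPM in the double mutants and 422, 389 and 385 CPM in wild type (log2 fold change -0.95, SE 0.10, adjusted p = 9.17e-06). The number of muscle genes that fell was 2 without double-mutant replicate 1, 2 without double-mutant replicate 2, 3 without double-mutant replicate 3 and 3 without wild-type replicate 1. The number of muscle genes that rose was 20 without wild-type replicate 2. Neuronal and synaptic genes rose in 20 of 101 and fell in 2 (median 0.13), and the 21.8% called lies below the 32.2% of all genes. One that rose was the neurofilament gene inab, with 29.6, 30.3 and 27.8 CPM in the double mutants and 19.8, 19.8 and 19.6 CPM in wild type (log2 fold change 0.56, SE 0.09, adjusted p = 1.86e-04). The number of neuronal genes that rose was 8 without double-mutant replicate 2 and 13 without wild-type replicate 2. Exocrine pancreas genes rose in 11 of 28 and fell in 1 (median 0.09). The digestive protease gene ctrl had 1181, 1096 and 1210.1 CPM in the double mutants and 749, 681 and 689 CPM in wild type (log2 fold change 0.72, SE 0.06, adjusted p = 7.94e-07), and the carboxypeptidase gene cpa1 had 329, 318 and 311 CPM in the double mutants and 178, 225 and 190.4 CPM in wild type (log2 fold change 0.69, SE 0.08, adjusted p = 1.99e-05).

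Liver and gut genes moved in both directions. Of 60 liver genes, 27 rose and 14 fell (median 0.24). The protease inhibitor gene serpina1 had 528, 575 and 540.4 CPM in the double mutants and 244, 269.8 and 204 CPM in wild type (log2 fold change 1.19, SE 0.10, adjusted p = 1.13e-06), and the fetuin gene ahsg1 had 42.4, 58.5 and 42.2 CPM in the double mutants and 16.9, 14.3 and 15.1 CPM in wild type (log2 fold change 1.62, SE 0.13, adjusted p = 4.01e-07). The apolipoprotein gene apoa4b.2 fell, with 770.5, 812 and 852 CPM in the double mutants and 1666, 1634 and 1556 CPM in wild type (log2 fold change -0.996, SE 0.06, adjusted p = 4.51e-08). Of 43 genes of the absorbing gut cell, 13 rose and 8 fell (48.8% called), and the share that fell was close to the 18% over all genes. The peptide transporter gene slc15a1a had 75.3, 63.1 and 70.7 CPM in the double mutants and 31.8, 25.8 and 30.5 CPM in wild type (log2 fold change 1.25, SE 0.13, adjusted p = 9.44e-06), and the aminopeptidase gene anpepb had 373, 313 and 324 CPM in the double mutants and 156, 185 and 157 CPM in wild type (log2 fold change 1.02, SE 0.10, adjusted p = 7.46e-06). The fatty acid-binding protein gene fabp2 was lower, with 389, 428 and 444 CPM in the double mutants and 656, 588 and 547 CPM in wild type (log2 fold change -0.51, SE 0.08, adjusted p = 1.69e-04). Double-mutant replicate 2 was the highest in ahsg1, and the wild types of fabp2 lay close above the double mutants.

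In the eye, calls in the vision cascade ran both ways, with 14 higher and 19 lower of 64 genes (median -0.14). Cone arrestin genes rose, arr3b with 104, 122 and 119 CPM in the double mutants and 31.5, 32.1 and 34.6 CPM in wild type (log2 fold change 1.82, SE 0.08, adjusted p = 1.12e-09) and arr3a with 314, 340.4 and 318 CPM in the double mutants and 185, 185 and 184 CPM in wild type (log2 fold change 0.81, SE 0.07, adjusted p = 6.81e-07). The cone phosphodiesterase gene pde6c had 273, 299.9 and 291 CPM in the double mutants and 154, 165 and 159 CPM in wild type (log2 fold change 0.86, SE 0.07, adjusted p = 3.81e-07). The number of vision genes that fell was 12 without double-mutant replicate 2, 11 without double-mutant replicate 3 and 12 without wild-type replicate 1. Of the opsins, the red cone gene opn1lw2 fell, with 189, 201 and 205 CPM in the double mutants and 368, 342 and 319 CPM in wild type (log2 fold change -0.79, SE 0.07, adjusted p = 1.86e-06). The rod opsin gene rho had 717, 668 and 641 CPM in the double mutants and 887, 773 and 819 CPM in wild type (log2 fold change -0.29, SE 0.07, adjusted p = 0.00425), and its call was lost without double-mutant replicate 3 (adjusted p = 0.0516). In the skin, 6 of 39 keratin and epidermal genes rose and 12 fell (median -0.13). The number of keratin and epidermal genes that rose was 3 without wild-type replicate 3. The periderm keratin gene krt4 had 2629, 3261 and 2984 CPM in the double mutants and 4494, 4719 and 4527 CPM in wild type (log2 fold change -0.63, SE 0.08, adjusted p = 2.10e-05), and cyt1, another epidermal keratin gene, had 80.5, 105 and 94.7 CPM in the double mutants and 218, 239.7 and 272 CPM in wild type (log2 fold change -1.38, SE 0.16, adjusted p = 2.32e-04). Keratin and epidermal genes summed to 12224 to 14424 CPM in the double mutants and 15764 to 15940.1 CPM in wild type. Collagens gave 3 higher and 8 lower of 52 (median -0.04), and myelin and glial genes 3 higher and 1 lower of 34 (median -0.0018), shares of 21.2% and 11.8% that are below the background. The number of collagens that fell was 4 without double-mutant replicate 1, 4 without double-mutant replicate 2, 3 without double-mutant replicate 3 and 5 without wild-type replicate 2. Higher collagens numbered 7 with the 6 libraries alone and between 1 (without double-mutant replicate 2 or wild-type replicate 2) and 7 (without wild-type replicate 3) with 1 library left out. Of the myelin and glial genes, 5 were higher and 4 lower with the 6 libraries alone or without single-mutant replicate 1. Leaving out any other single library gave no lower call, except wild-type replicate 3, where 1 was lower.

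Of 9 small RNA rows tested, 5 fell, 1 rose and the other 3 were not called. The U1 and U2 spliceosomal rows fell, U1 with 6.59, 6.73 and 10.5 CPM in the double mutants and 60.5, 63.0 and 35.9 CPM in wild type (log2 fold change -2.74, SE 0.25, adjusted p = 9.06e-05) and U2 with 15.0, 14.1 and 39.5 CPM in the double mutants and 193, 139 and 107 CPM in wild type (log2 fold change -2.67, SE 0.46, adjusted p = 0.00565). The row 5_8S_rRNA had 2.02, 2.39 and 1.46 CPM in the double mutants and 18.9, 9.70 and 8.72 CPM in wild type (log2 fold change -2.68, SE 0.31, adjusted p = 8.39e-05). The row of the signal recognition particle RNA, named Metazoa_SRP, was higher, with 70372, 60074 and 62392 CPM in the double mutants and 45863, 46773 and 37066 CPM in wild type (log2 fold change 0.57, SE 0.08, adjusted p = 3.81e-04). Double-mutant replicate 3 was the highest of its genotype in U1 and U2, and without it the log2 fold change of U2 was -3.31. Scaling factors taken without the small RNA rows and the abundant tissue genes together gave 6964 calls and changed no call of the genes described. Any further part of these rows in the other results was not tested.

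Against the single mutants, 362 genes were called in the double mutants, 1.67% of those tested, of which 145 were higher and the rest lower. Cholesterol enzymes accounted for 9 of the higher calls. The synthase hmgcs1 was higher in the double than in the single mutants (log2 fold change 1.12, adjusted p = 0.00572), and so was sqlea (1.13, adjusted p = 1.39e-04). The interferon-stimulated group held 18 genes lower in double than in single mutants, among them trim25 (-0.93, adjusted p = 1.74e-04). Summed over this group, double mutants had 396 to 536 CPM and single mutants 684 to 922 CPM. Wild type had 403 to 474 CPM, in the range of the double mutants. Unlike that sum, trim25 was also lower in the double mutants than in wild type. The cytochrome P450 gene cyp2p9 had no call against wild type and was higher than in single mutants. For it, the double mutants had 21.1, 17.5 and 21.5 CPM, the single mutants 2.23, 1.303 and 1.77 CPM and wild type 20.2, 17.7 and 18.6 CPM (double over single, log2 fold change 3.50, adjusted p = 7.97e-09). The gene apip was lower than in single mutants, with a mean of 0.0558 CPM in double mutants and 6.52 CPM in single mutants (adjusted p = 6.97e-08). For plcd3b the mean was 0.1998 CPM in double and 3.14 CPM in single mutants (log2 fold change -3.91, adjusted p = 5.16e-04). The acute phase gene serpina1 was also higher in the double than in the single mutants (1.14, adjusted p = 3.14e-05).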

How the data were processed

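The authors deposited whole-number counts per gene, 1 column per library, which are raw counts per the file headers and the values. The submitters' processing notes name cutadapt, STAR, featureCounts and DESeq2 and the build GRCz11. They name no tool version, annotation release or strand setting, and do not say how multimapping reads were handled.

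All 9 libraries were fitted together in edgeR 4.0.16 (R 4.3.3) with TMM scaling, filterByExpr by genotype and the robust quasi-likelihood test, with 6 residual degrees of freedom. A gene was called at a Benjamini-Hochberg adjusted p under 0.05 over all 21694 genes tested. Printed CPM values are counts over TMM-scaled library sizes. SE is the log2 fold change divided by the square root of its F statistic. The script was tested on simulated data.

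The gene lists and the comparison were chosen with earlier results of these data known. Genes were named by rule: the targeted row, the 12 highest and 12 lowest called genes of at least 1 CPM without overlap, the main members of each list with up to 4 more of smallest p, neighbours of the target, and the largest differences from single mutants. Not every gene the rule gives is described. Alternatives were 6 libraries only, other scaling, filters and tools (limma 3.58.1, DESeq2 1.42.0), a replicate block and leaving out each library.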

Additional observations from a re-analysis of the deposited data

How the results depend on the processing

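The number of genes called stayed within 1.5 times of 6990 under every alternative, between 5230 and 8697 when 1 library was left out and between 6697 and 8694 under the others. Calls of higher genes lay between 2432 and 3861 and of lower genes between 2693 and 4836 when 1 library was left out. At least 2-fold calls lay between 1295 and 1547, of which higher ones between 720 and 862 and lower ones between 541 and 685. Of 140 called genes described above with values, 134 were called under every alternative, and no direction turned. The exceptions were hadhaa, psmb13a, crhr2, cyp24a1, rho and hspa5, whose calls were lost without the libraries named beside them, and limma-voom also gave no call to crhr2 (adjusted p = 0.0553) and cyp24a1 (adjusted p = 0.205), nor did the fit without a filter to hspa5 (adjusted p = 0.0519). With 5 instead of 10 genes on each side of the target, 3 were called, since fewer genes were counted. No pairing of the samples by equal replicate number was seen: the deviations of double mutants and wild types with the same number correlated at 0.050, 0.014 and -0.010, and not every sample correlated best with its own number. With 3 libraries a genotype, a weak pairing could go unseen. A replicate block gave 7006 calls and changed no call of the genes described. The annotation, strand setting and clutches were not given, and 3 libraries a genotype limit the precision.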

Other observations

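Some called rows had no count in the double mutants, or none in wild type. Of the genes called, 23 had no count in any double-mutant library, with sums over the 3 wild-type libraries between 25 and 874 counts, and 13 of these had no count in the single mutants either. Another 5 had no count in wild type, with sums over the double mutants between 47 and 1138 counts, and 3 of these were counted in every single-mutant library. All but 4 of the 23 carry clone names and not gene symbols.

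Zebrafish often carry a gene as a pair of copies whose symbols end in a and b. Pairs were taken here by symbol alone, which can also join separate genes that are not such copies. Among 2508 pairs of symbols that differ only by this last letter, with both members at 1 CPM or more, both were called in 316. Both were higher in the double mutants in 133 pairs and both lower in 126, and in 57 pairs (18.0%) the members went opposite ways. In 934 pairs 1 member was called. The pairs adh8 and plcd3 were chosen after their values were seen. The copy adh8a had a log2 fold change of 3.35 and adh8b of -0.88, and plcd3a had 0.75 while plcd3b had -4.79.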
